A study of Mus musculus with 2 samples.

Results

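The gamma-delta T cells of mouse dorsal skin were described in 1 Ctrl library and 1 AD library of single-cell RNA-seq, where AD is the dermatitis model induced by MC903 (calcipotriol, a vitamin D analogue). They were selected on their own transcripts: a cell was taken when it had at least 1 UMI (a distinct captured mRNA molecule) of Trdc, at least 1 UMI of Cd3e, Cd3d and Cd3g in sum, and 0 UMIs of Foxp3, Pdgfra and C1qa, which mark regulatory T cells, fibroblasts and macrophages. This gate left 308 of 19578 kept cells, of which 214 of 11399 were from Ctrl and 94 of 8179 from AD. Members were then split by whether a UMI of Il17a, Il7r or Ccr2 was present, giving 190 cells with and 118 cells without, the division that the rule uses for the dermal and the epidermal type. Because these 10 genes chose or split the cells, their presence or absence is no result.

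Both libraries came from female C57BL/6J mice of 7 weeks whose back had been cleared of hair with depilatory cream, and no genetic alteration is named for either group. AD skin received MC903 at 4.5 nmol per application in ethanol each day over an area of 2 cm × 2 cm, Ctrl skin received ethanol alone, and both groups were sampled on day 10. Skin was digested with collagenase and DNase without separating epidermis from dermis in the protocol given, and no sort for T cells is described. Each group is 1 library, and the number of mice in it is not given in the sources used here, so no test between AD and Ctrl could be made: every interval below is an exact 95% interval on UMIs or cells and covers counting error only.

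Gamma-delta T cells carry a T cell receptor of a gamma and a delta chain, encoded in part by Tcrg-C1, Tcrg-C2, Tcrg-C4 and Trdc, that is displayed with the CD3 proteins. Mouse skin holds a pair of such populations. Dendritic epidermal T cells sit between keratinocytes with a nearly invariant receptor built from Tcrg-V5 and Trdv4, and are known for tissue repair and for amphiregulin, Xcl1 and cytotoxic genes. Dermal gamma-delta T cells follow a type 17 program, respond to IL-23 and IL-1, and are a main source of IL-17A in mouse skin inflammation.

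IL-17A and IL-17F are the cytokines that give the dermal type its name, and IL-23 receptor is the input that sustains them, so the promoters of these 3 genes are shown first. The windows run from 250 bases before to 50 bases after the transcription start in RefSeq (GRCm38.p6), 5′ to 3′ on the gene's own strand. Capitals mark AGGTCA or its reverse complement TGACCT, a half-site shared by many nuclear receptors, searched on both strands; 16.3% of 32851 RefSeq promoter windows of this length hold it. Il17a lies at chr1:20730655-20730954 on the plus strand and Il17f at chr1:20784221-20784520 on the minus strand, inside the longer GENCODE M21 gene model of Il17f. Il23r lies at chr6:67491806-67492105 on the minus strand. A match is a description of these letters and not a binding site.
Il17a: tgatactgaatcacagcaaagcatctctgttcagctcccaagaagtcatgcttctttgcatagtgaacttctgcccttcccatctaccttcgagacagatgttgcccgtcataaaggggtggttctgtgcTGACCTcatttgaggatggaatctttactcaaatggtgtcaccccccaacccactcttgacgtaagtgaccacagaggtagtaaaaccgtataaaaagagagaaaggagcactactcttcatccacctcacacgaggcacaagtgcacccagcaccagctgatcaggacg
Il17f: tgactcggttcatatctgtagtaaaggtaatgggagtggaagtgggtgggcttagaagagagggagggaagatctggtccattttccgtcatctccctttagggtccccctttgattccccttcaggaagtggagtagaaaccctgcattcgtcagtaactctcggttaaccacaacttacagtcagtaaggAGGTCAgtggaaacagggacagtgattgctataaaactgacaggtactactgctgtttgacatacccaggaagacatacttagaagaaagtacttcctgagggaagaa
Il23r: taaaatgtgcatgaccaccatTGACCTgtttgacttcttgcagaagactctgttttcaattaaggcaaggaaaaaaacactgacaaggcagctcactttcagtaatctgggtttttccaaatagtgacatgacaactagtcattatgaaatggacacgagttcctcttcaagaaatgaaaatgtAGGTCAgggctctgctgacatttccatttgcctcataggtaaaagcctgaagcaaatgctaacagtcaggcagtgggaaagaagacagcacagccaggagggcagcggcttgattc
One match stood in the Il17a window, 1 in the Il17f window and 2 in the Il23r window. The windows of Cd163l1, Xcl1, Fcer1g, Nkg7, Areg, Il13 and Gata3 held 0 matches, and 5830411N06Rik had 3 overlapping windows with 1 match each.

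The libraries held 125184653 UMIs over 12598 barcodes in Ctrl and 76106062 UMIs over 8778 barcodes in AD. The gated cells had 913456 UMIs in Ctrl, with a median of 3464.5 UMIs and 1620.5 genes per cell, and 428917 UMIs in AD, with a median of 3925 UMIs and 1724.5 genes. A single UMI was therefore worth 1.09 CPM (UMIs of a gene scaled to a fixed total over the cells concerned) in Ctrl and 2.33 CPM in AD, and a gene with 0 UMIs can have had up to 3.28 CPM and 6.99 CPM. Single gated cells ranged from 551 to 22656 UMIs in Ctrl and from 1663 to 24030 in AD. Levels pool UMIs over cells, so they weigh deep cells more, and no doublets were removed. The libraries shared 35 barcode sequences, none of them in gated cells. In Ctrl, 328 cells had a Trdc UMI, 265 of these also had a CD3 UMI, and most of the later losses were 42 cells with a Pdgfra UMI. In AD the same steps left 133 and 105 cells, and 8 were lost to Pdgfra. Members just inside the gate were 21 Ctrl and 16 AD cells with a single Trdc UMI. Just outside it lay 34 and 15 cells with Trdc but no CD3 UMI that also lacked Foxp3, Pdgfra and C1qa.

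The label was checked on receptor genes that the gate did not use. Tcrg-C1 was found in 147 of 214 Ctrl and 60 of 94 AD gated cells, against 8 of 5255 and 1 of 4886 cells of the fibroblast class, whose median depths were 9047 and 6880.5 UMIs, and 23 of 363 and 24 of 265 alpha-beta T cells (CD3 and a beta or alpha chain, no Trdc, with median depths of 3053 and 6344 UMIs). A UMI of a constant gamma gene or of a variable delta gene was seen in 110 of 130 Ctrl cells with Il17a, Il7r or Ccr2 and in 81 of 84 without, and in 50 of 60 and 30 of 34 in AD. Of the 10 AD cells with that had neither, 6 carried Trac, as did 2 of the 20 such Ctrl cells, so for these the label rests on Trdc and CD3 alone. The genes of alpha-beta T cells, the other T cell lineage, were not absent. Trac, the alpha constant chain, was detected in 26 of 214 Ctrl cells and in 20 of 94 AD cells, of which 18 were among the 60 with Il17a, Il7r or Ccr2. A beta constant chain (Trbc1 or Trbc2) was detected in 170 Ctrl and 68 AD gated cells, most of them without Trac. Cd8a was at 0 in every gated cell of both libraries. Ptprc (CD45), a gene of leukocytes, had a UMI in 207 of 214 Ctrl and 80 of 94 AD gated cells.

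Fewer cells passed the gate in AD. They were 1.88% (1.64 to 2.14) of kept cells in Ctrl and 1.15% (0.930 to 1.40) in AD, a log2 ratio of -0.71 (-1.07 to -0.35). Kept cells had a median of 7813 UMIs in Ctrl and 6330 in AD, so each cell was also thinned to 1000 UMIs before the gate, which left out 368 and 499 shallower cells. The shares were then 1.38% and 0.560%, a log2 ratio of -1.30 (-1.82 to -0.80). Among kept cells with a CD3 UMI, gated cells were 22.8% in Ctrl and 17.5% in AD, a log2 ratio of -0.38 (-0.75 to -0.03). For this share the cells were not thinned, and a CD3 UMI alone does not show that a cell is a T cell. Of kept cells with a Ptprc UMI, 9.76% (8.53 to 11.1) in Ctrl and 7.66% (6.12 to 9.44) in AD were gated cells, also without thinning. Cells with Il17a, Il7r or Ccr2 were 1.14% of kept cells in Ctrl and 0.734% in AD, and cells without were 0.737% and 0.416%. Both subsets were thus a smaller share of kept cells in AD, and their proportion was close. On the side with these genes fell 60.7% (53.9 to 67.3) of gated Ctrl cells and 63.8% (53.3 to 73.5) of gated AD cells. The direction turned without the cells that had a UMI of Trac, Trbc1 or Trbc2, at 80.5% (65.1 to 91.2) in Ctrl and 60% (36.1 to 80.9) in AD. With only the cells that had a Trac UMI left out, the shares were 60.6% in Ctrl and 56.8% in AD.

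**Figure D1:**
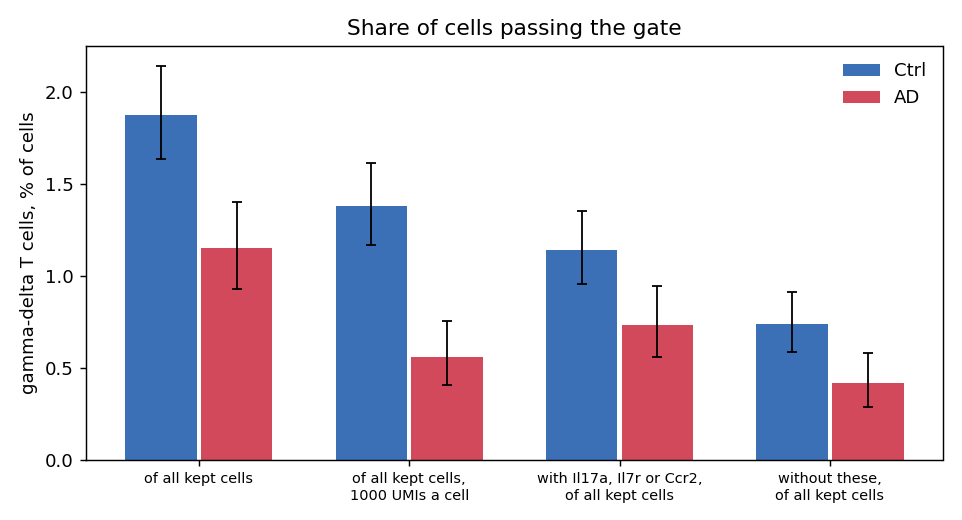
Share of kept cells that passed the gamma-delta T cell gate (y axis, percent), in Ctrl and AD, for all kept cells, after thinning each cell to 1000 UMIs, and for the cells with and without Il17a, Il7r or Ccr2. Bars start at 0 and lines are exact 95% intervals of the cell counts; AD lies below Ctrl in each pair, from 1.88% to 1.15% for the whole gate.

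The split parted the cells along genes it had not used. Summed over a type 17 list from which Il17a was left out, cells with had a median of 85.9 UMIs per 10000 in Ctrl and 67.3 in AD, and cells without had 6.37 and 4.89. Summed over an epidermal list (Trdv4, Tcrg-V5, Xcl1, Fcer1g, Nkg7, Ctsw, Cd7 and others), the medians were 22.3 and 20.1 in cells with and 129 and 58.0 in cells without. Cell by cell, 124 of 130 Ctrl and 57 of 60 AD cells with held more UMIs of the type 17 list, while 80 of 84 Ctrl and 33 of 34 AD cells without held more of the epidermal list. Few cells of either library departed from this pattern.

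**Figure D2:**
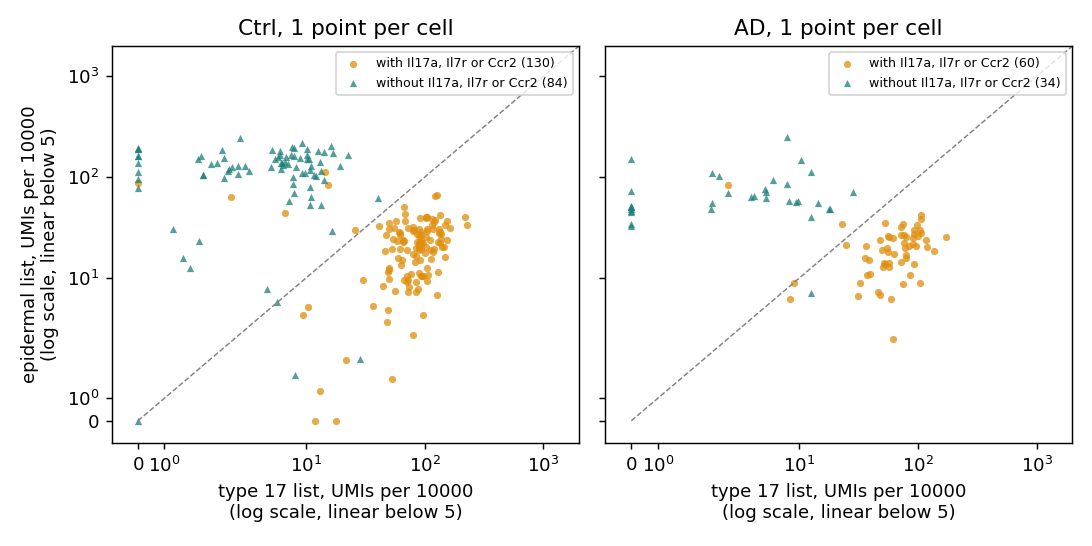
Each point is 1 gated cell, in Ctrl (left) and AD (right). The x axis gives UMIs of the type 17 list without Il17a and the y axis UMIs of the epidermal list, both per 10000 UMIs of the cell on a log scale that is linear below 5; the dashed line marks equal values. Orange circles (with Il17a, Il7r or Ccr2) lie below the line in 124 of 130 and 57 of 60 cells, and green triangles (without) above it in 80 of 84 and 33 of 34.

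Variable receptor chains followed the division only in part, most clearly for Tcrg-V5 in Ctrl. Tcrg-V5, the gamma chain of dendritic epidermal T cells, was detected in 22 of 84 Ctrl cells without and in 0 of 130 with, and all 22 of those cells also had Trdv4. In AD it was detected in 1 of 34 and 0 of 60 cells. Trdv4 was not restricted to 1 side, with 71 of 84 Ctrl cells without and 51 of 130 with, and 23 of 34 and 34 of 60 cells in AD. Tcrg-V6, a chain of dermal type 17 cells, was found in 6 Ctrl and 3 AD cells with, and in 3 and 0 cells without. Tcrg-V4, the other common dermal chain, was found in 5 Ctrl cells and 1 AD cell, all with Il17a, Il7r or Ccr2. Most gated cells of both libraries had no UMI of any variable gamma chain. The constant gamma genes are near-identical copies, and how reads were shared among them is uncertain.

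Across genes, each gated cell was thinned to 1000 UMIs, which left out 1 shallower Ctrl cell, and the cells of both libraries were compared side by side. Of 2323 genes with at least 100 CPM in either subset, 13.5% were at least 2-fold higher in cells with and 17.7% were at least 2-fold lower, with the same sign in Ctrl and AD. All 17 type 17 genes at that level that the rule had not used were among the higher (median log2 ratio 3.71), and 7 of 11 epidermal genes were among the lower, with Jaml, a junctional adhesion receptor, the exception on the higher side. Of 7 cytotoxic genes, 6 were lower in cells with. These ratios describe cells parted by 3 genes of the same program and are given with no test.

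With Il17a, Il7r and Ccr2 left out, the 8 genes ranked highest in cells with were Icos, Il17f, 5830411N06Rik, Gpr183, Gmfg, Pde4b, Pdcd1 and Sla. Icos, a costimulatory receptor, stood at 509 CPM in Ctrl cells with and 735 CPM in AD cells with, and at 20.3 and 0 CPM in those without. 5830411N06Rik (Scart2) and Cd163l1 (Scart1) are scavenger receptors of gamma-delta T cells encoded beside each other, at chr7:140247284-140300736 and chr7:140218267-140231145 (GRCm38, GENCODE M21, plus strand). The first was found in 56 of 130 Ctrl cells with and in 0 of 84 without. Gpr183, an oxysterol receptor, was found in 88 of 130 and 51 of 60 cells with and in 3 of 84 and 1 of 34 without.

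The 8 genes ranked lowest in cells with were Trat1, Hba-a2, Hba-a1, Hbb-bs, Ctla2a, Fermt2, Fcer1g and Klrd1. Trat1, an adaptor that stabilises the T cell receptor, was detected in 76 of 84 Ctrl cells without and 2 of 130 with, and in 31 of 34 and 4 of 60 AD cells. Fcer1g, a signalling chain of Fc and natural cytotoxicity receptors, reached 1415 CPM in Ctrl and 1051 CPM in AD cells without, against 34.7 and 13.5 CPM in cells with. Klrd1 (CD94), an NK receptor chain, stood at 322 and 665 CPM in cells without. The UMIs of the 3 haemoglobin genes came mostly from single cells: 1 cell held 97.1% of the Hba-a1 UMIs of the 84 Ctrl cells, and 1 cell held 98.1% of those of the 34 AD cells.

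**Figure D3:**
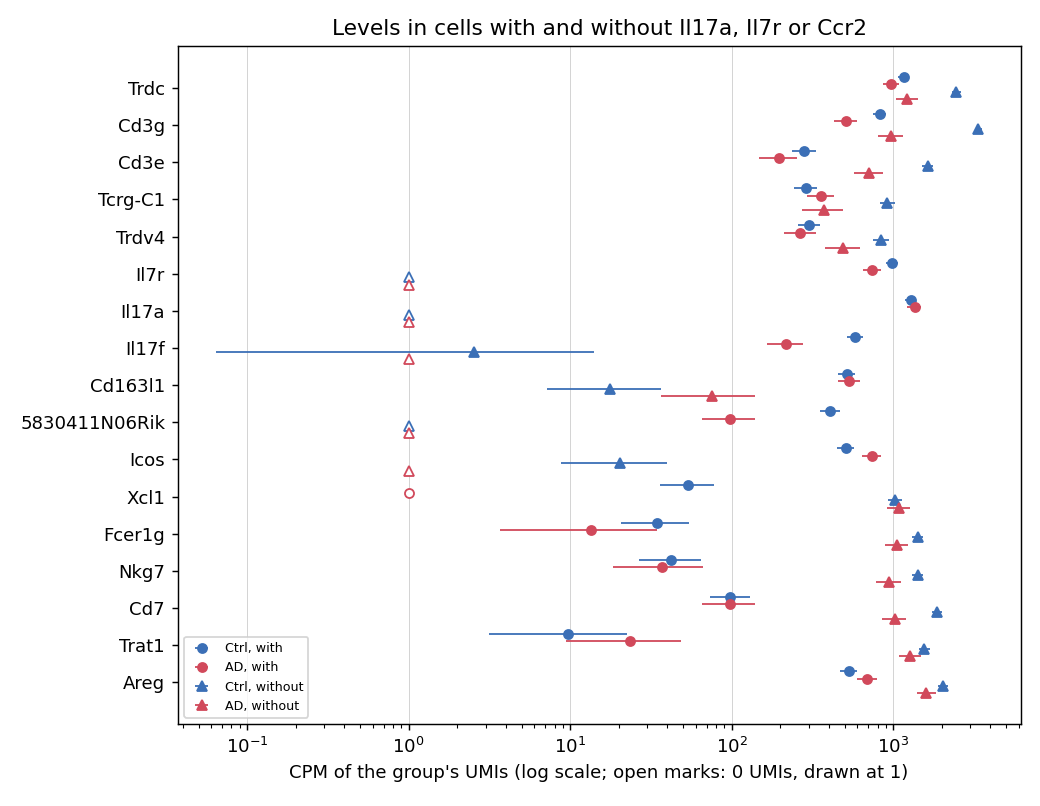
Levels (x axis, CPM on a log scale) of 17 genes in gated cells with (circles) and without (triangles) Il17a, Il7r or Ccr2, in Ctrl (blue) and AD (red); lines are exact 95% intervals and open marks are 0 UMIs, drawn at 1. Il17f, Cd163l1, 5830411N06Rik and Icos lie to the right in cells with, and Xcl1, Fcer1g, Nkg7, Cd7 and Trat1 in cells without, in both libraries; Il7r and Il17a define the split.

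Interleukin 17 transcripts were present without MC903. Il17a was detected in 72 of 214 Ctrl cells (33.6%, 27.3 to 40.4) and in 31 of 94 AD cells (33.0%, 23.6 to 43.4), against 0.304% and 0.0819% of the fibroblast class. After thinning these shares were 26.3% and 24.5%. Its level in cells with was 1285 CPM in Ctrl and 1355 CPM in AD, a log2 ratio of 0.08 (-0.11 to 0.26), and as Il17a is a gene of the split these values are a description only. Over all gated cells the log2 ratio of Il17a, with 10 CPM added, was 0.36, and it was -1.72 without the cells that had a UMI of Trac, Trbc1 or Trbc2 and 1.58 after thinning before the gate. Il17f, its close relative, stood at 584 CPM in 36 of 130 Ctrl cells and at 216 CPM in 12 of 60 AD cells, a log2 ratio of -1.44 (-1.85 to -1.04), and 65.6% of the AD UMIs came from 1 cell. Thinning each cell before the gate turned the direction of Il17f over all gated cells, to a log2 ratio of 1.30 with 10 CPM added. Il22 was detected in 5 Ctrl cells and 1 AD cell.

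Receptors of the type 17 program are given next. Il23r, the IL-23 receptor, was found in 51 of 130 Ctrl and 22 of 60 AD cells with, at 160 and 118 CPM, which gave a log2 ratio of -0.44 (-1.05 to 0.15). Il7r, the IL-7 receptor, was at 986 and 742 CPM in cells with. The scavenger receptor pair differed in its values. Cd163l1 was at 514 CPM in Ctrl against 533 CPM in AD cells with (0.05, -0.24 to 0.34), and at 300 and 392 CPM over all gated cells (0.38, 0.10 to 0.67). With 10 CPM added the latter ratio was 0.37, and it turned to -0.78 without the cells that had a UMI of Trac, Trbc1 or Trbc2. In contrast, 5830411N06Rik was at 406 CPM in 56 Ctrl cells and 97.7 CPM in 8 AD cells (-2.06, -2.67 to -1.49). In Ctrl, 13 gated cells had both, 61 had Cd163l1 alone and 43 had 5830411N06Rik alone. In AD these numbers were 3, 45 and 5.

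Areg, Xcl1 and Il13 were higher in the cells without. Areg, which encodes amphiregulin, a ligand of the EGF receptor that acts in repair, was at 2036 CPM in 45 of 84 Ctrl and 1603 CPM in 21 of 34 AD cells without. Xcl1, the chemokine lymphotactin, was at 1032 and 1081 CPM there, but in 66 of 84 Ctrl and 15 of 34 AD cells. Its level was alike while the share of cells with a UMI was 78.6% in Ctrl and 44.1% in AD (51.8% and 23.5% after thinning). Il13, a type 2 cytokine, was detected in 18 of 84 Ctrl cells without and in 8 of 34 AD cells without, and in 1 cell with in each library, against 1 of 5255 and 12 of 4886 fibroblasts. Its level in cells without was 60.9 CPM in Ctrl and 106 CPM in AD. Over all gated cells, with 10 CPM added, the log2 ratio of Il13 was 0.41, and it was -1.86 after thinning before the gate. That thinning left 152 Ctrl and 43 AD gated cells with fewer UMIs each. The change of sign may rest on a few UMIs, and its counting error was not tested. On the same scale the log2 ratio of Areg was -0.28 and turned to 3.01 without the cells that had a UMI of Trac, Trbc1 or Trbc2. Il4 was detected in 1 Ctrl and 2 AD gated cells, and Il5 in none.

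Genes were next compared between AD and Ctrl over all gated cells, where 1 or both libraries reached 100 CPM, by a log2 ratio with 10 CPM added to each side. Of 2036 such genes, 59 (2.9%) were at least 2-fold higher in AD and 112 (5.5%) at least 2-fold lower, and the median log2 ratio over all of them was 0.02. Among the 591 of them that were at least 2 times above all other kept cells in the library where they were higher, 34 were higher and 32 lower. That filter admits a gene through the library where it is high, so these 2 counts are a description only. Over all genes tested, the counts were 77 higher and 115 lower with at least 2 Trdc UMIs, and 65 and 103 with at least 2 CD3 UMIs. They were 89 and 131 without the cells with Trac. Without the cells that had a UMI of Trac, Trbc1 or Trbc2, 314 of 2248 genes were higher and 275 lower, from 41 Ctrl and 20 AD cells. Thinning each cell before the gate gave 339 higher and 265 lower of 2279, from 152 Ctrl and 43 AD cells. The part of counting error in these larger counts, which rest on fewer UMIs, was not tested. Ratios printed for single genes with an interval carry no added CPM, while those printed for a gene under another choice of cells carry 10 CPM on each side. Many of the genes furthest apart belong to other skin cells. All 9 keratinocyte genes at that level were lower in AD (median -2.93), summed at 2506 CPM in gated Ctrl cells, with Krt10 the most abundant at 493 CPM, and 268 CPM in gated AD cells, with Krt14 at 119 CPM and 2 of 9 at 0. In all other kept cells these genes summed to 6323 and 947 CPM. All 5 fibroblast genes at that level were lower as well (1487 to 221 CPM, most abundant Dcn at 441 and 152 CPM, and 1 of 7 at 0 in each library), and in all other kept cells they summed to 31586 and 8597 CPM. The 4 genes of dendritic and Langerhans cells at that level were lower (all 7 summed at 695 to 88.6 CPM), led by Cd74 at 290 and 42.0 CPM, and 1 cell held 77.4% of the Ctrl Cd74 UMIs. Macrophage genes summed to 42.7 CPM in gated Ctrl cells and 30.3 CPM in gated AD cells, mast cell and basophil genes to 26.3 and 79.3 CPM, endothelial genes to 58.0 and 23.3 CPM, and NK cell genes to 14.2 and 2.33 CPM. Neutrophil genes summed to 0 and 16.3 CPM and B cell genes to 2.19 and 16.3 CPM. Muscle, fat and red cell genes summed to 751 and 340 CPM, led by Hbb-bs at 392 and 201 CPM, of which 1 cell held 90.5% in Ctrl and 87.2% in AD. The part of such RNA in the other ratios was not tested, and leaving out cells with more than 3 UMIs of Krt5, Krt14, Col1a1, Lyz2 and Cpa3 in sum gave 50 genes higher and 104 lower. Genes were therefore ranked among those at least 2 times above all other kept cells in the library where they were higher.

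Of the 12 genes ranked highest in AD, 11 are described: Plaur, Pdcd1, Cxcr4, Ramp3, Adgre5, Satb1, Dgat1, Slc2a3, Hilpda, Pacs2 and Tcp11l2. Plaur, the urokinase receptor that anchors plasminogen activation at the cell surface, was at 16.4 CPM in Ctrl, with a UMI in 10 of 214 cells, and at 233 CPM in AD, with a UMI in 43 of 94. The log2 ratio was 3.83 (3.04 to 4.72), and no single cell held more than 8% of the AD UMIs. It was higher in AD on both sides of the split, by 4.27 (3.07 to 5.76) in cells with and 3.49 (2.40 to 4.74) in cells without. Alpha-beta T cells stood at 7.72 CPM in Ctrl against 159 CPM in AD, with a log2 ratio of 4.36. All other kept cells differed by 1.56 on the same scale. Of the fibroblast class, 14.2% of Ctrl and 17.5% of AD cells had a Plaur UMI. After thinning, gated cells with a Plaur UMI were 0.939% in Ctrl and 20.2% in AD, beside 1.77% and 3.04% of the fibroblast class thinned alike. Whether the fibroblast share is free RNA or their own transcripts was not tested.

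Values of other genes of this ranking follow. Pdcd1 (PD-1), an inhibitory receptor of activated T cells, was at 114 CPM in 39 of 130 Ctrl cells with and 324 CPM in 36 of 60 AD cells with, a log2 ratio of 1.51 (1.03 to 2.00), and at 0 in every cell without. Cxcr4, the receptor of Cxcl12, was at 50.4 and 177 CPM over all gated cells (1.81, 1.27 to 2.38). Ramp3, a modifying protein of the adrenomedullin and calcitonin family of receptors, was at 122 CPM in Ctrl against 870 CPM in AD cells without (2.84, 2.34 to 3.35), and at 204 and 371 CPM in cells with.

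Of the others, Dgat1 makes triglycerides, Hilpda sits on lipid droplets, Slc2a3 is a glucose transporter and Satb1 organises T cell chromatin. Dgat1 was at 72.3 and 210 CPM over all gated cells (1.54, 1.06 to 2.02). Hilpda was at 79.9 and 226 CPM (2.83-fold, log2 interval 1.05 to 1.96). Slc2a3 was at 31.7 and 100 CPM (1.66, 0.95 to 2.39), and 25.6% of its AD UMIs came from 1 cell. Of these 11 genes, 6 were at least 2-fold higher in alpha-beta T cells too and 7 in all other kept cells. Without the cells that had a UMI of Trac, Trbc1 or Trbc2, Slc2a3 and Hilpda turned to -0.19 and -0.83, and Adgre5 (0.21), Satb1 (0.43), Tcp11l2 (0.62) and Dgat1 (0.85) were no longer 2-fold higher. Thinning before the gate left Adgre5 at 0.19 and Pacs2 at 0.87.

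The 12 genes ranked lowest in AD were Thy1, Cst7, Cntn1, Avil, 5830411N06Rik, Trmt61b, Tcrg-C4, Cd3g, Hlf, S100a4, Col27a1 and Itgb7. Cd3g is a gene of the gate, so its place in this ranking is a description only. Thy1 (CD90), the surface protein first used to identify epidermal T cells, was at 691 CPM in 174 of 214 Ctrl cells and 156 CPM in 39 of 94 AD cells, a log2 ratio of -2.14 (-2.53 to -1.78). It was lower in cells with (-1.80, -2.31 to -1.31) and in cells without (-2.30, -2.93 to -1.73). Thy1 was also lower in alpha-beta T cells, at -1.31, and in all other kept cells, at -2.16, where fibroblasts carry it at 519 CPM in Ctrl against 84.6 CPM in AD. Cst7, cystatin F, an inhibitor of the proteases that activate granzymes, was at 131 and 30.3 CPM, which gave a log2 ratio of -2.12 (-3.07 to -1.29). In alpha-beta T cells its ratio was -0.25 (-0.81 to 0.32).

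Several of the low genes belonged to the cells without. Avil, an actin regulator, was found in 56 of 84 Ctrl and 10 of 34 AD cells without, at 403 and 144 CPM (-1.49, -2.26 to -0.80), and in 0 of 130 Ctrl and 2 of 60 AD cells with. Cntn1, a neural adhesion protein, was found in 50 of 84 and 8 of 34 cells without, at 266 and 68.1 CPM (-1.97, -3.14 to -0.99). Without the cells that had a UMI of Trac, Trbc1 or Trbc2, the ratios of Avil and Cntn1 over the gated cells turned to 0.33 and 1.74. Of the cells that remained there, 33 of 41 in Ctrl and 12 of 20 in AD were cells with. The part of this changed makeup in the turned ratios was not tested. On the other side, Hlf, a transcription factor, was found in 55 of 130 Ctrl cells with at 250 CPM, and in 18 of 60 AD cells with at 70.8 CPM (-1.82, -2.56 to -1.15). S100a4, a calcium-binding protein of motile cells, was at 2222 and 893 CPM over all gated cells (-1.32, -1.48 to -1.16). Some of these calls were lost under an alternative: Hlf was at -0.89 after thinning before the gate, Itgb7 at -0.91 and Cd3g at -0.74 without the cells that had a UMI of Trac, Trbc1 or Trbc2, and Col27a1 at 0.18 without those and -0.88 without the cells with Trac alone. Of the 12 genes, 4 were at least 2-fold lower in alpha-beta T cells and 3 in all other kept cells.

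**Figure D4:**
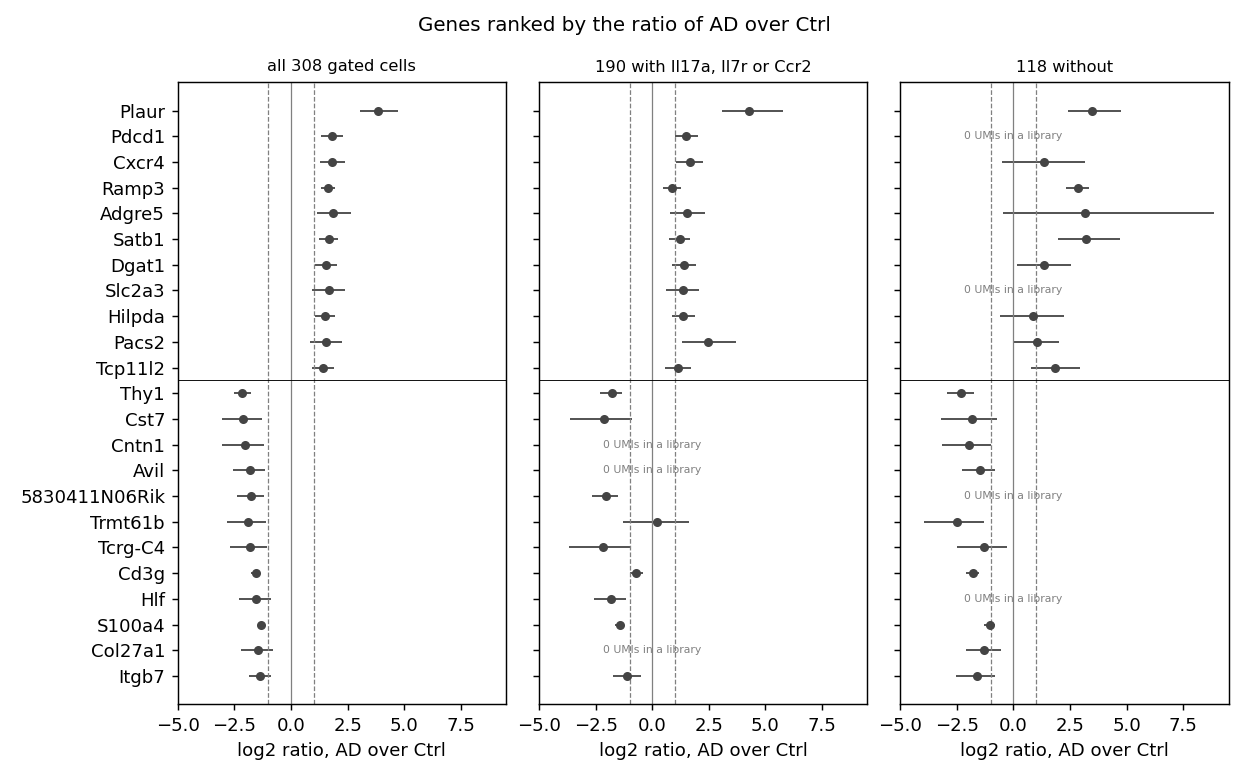
Log2 ratio of CPM, AD over Ctrl (x axis), of 11 genes ranked highest (top) and the 12 ranked lowest (bottom) in all gated cells, in cells with and in cells without Il17a, Il7r or Ccr2. Points are ratios, lines exact 95% intervals, dashed lines 2-fold, and no point is drawn where a library had 0 UMIs. Plaur is far to the right and Thy1 to the left in all 3 panels. Cd3g, a gene of the gate, lies at -0.69 in cells with and -1.80 in cells without.

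Levels of the receptor complex are given next, as a description for Trdc and the CD3 genes, which chose the cells. Over all gated cells Trdc was at 1720 CPM in Ctrl against 1051 CPM in AD (-0.71, -0.86 to -0.56). In cells without, Trdc went from 2455 to 1225 CPM, Cd3g from 3370 to 968 CPM and Cd3e from 1641 to 711 CPM. Their log2 ratios were -1.80 (-2.07 to -1.54) for Cd3g and -1.21 (-1.53 to -0.89) for Cd3e. In cells with, Trdc was at 1162 and 974 CPM, Cd3g at 823 and 509 CPM (-0.69, -0.97 to -0.42) and Cd3e at 281 and 195 CPM (-0.52, -0.99 to -0.08). Tcrg-C1, outside the gate, was at 920 and 371 CPM in cells without (-1.31, -1.77 to -0.88) and at 287 and 357 CPM in cells with (0.32, -0.06 to 0.68). As every member has at least 1 Trdc and 1 CD3 UMI by rule, the levels of Trdc and the CD3 genes are bounded from below. The median number of Trdc UMIs per member was 5 in Ctrl and 3 in AD. In alpha-beta T cells, Cd3g and Cd3e had ratios of -0.72 and -0.64. Cd3e turned to 0.081 and Tcrg-C1 to 0.39 over the gated cells once those with a UMI of Trac, Trbc1 or Trbc2 were left out. That choice also moved the share of cells with.

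The gene lists are described by their counts at that 2-fold line, beside the 2.9% higher and 5.5% lower over all genes. Of 3 gamma-delta receptor genes outside the gate, 1 was lower (Tcrg-C4) and the median was -0.66. Of 8 genes of T cell receptor signalling outside the gate, 1 was lower (Thy1) and none higher, with a median of -0.07. Of 16 type 17 genes, 4 were lower (Blk, 5830411N06Rik, Il17f and Tmem176a), none was higher and the median was -0.04. The call of Il17f was lost with at least 2 Trdc UMIs (-0.74), with at least 2 CD3 UMIs (-0.92), without cells with Trac (-0.69) and under thinning. Of 11 epidermal genes, 2 were lower, Ctsw (a lysosomal protease of killer cells) and Cd7, and the median was -0.65. Cd7 was at 1861 CPM in Ctrl against 1021 CPM in AD cells without (-0.87, -1.14 to -0.60), and turned to 0.44 over the gated cells when those with Trac, Trbc1 or Trbc2 were left out. Fcer1g (0.70), Nkg7 (0.57) and Trdv4 (0.42) turned as well, while Xcl1 (-1.52), Ctsw (-1.30) and Itgae (-0.18) stayed lower. The other 4 genes were not examined under that choice, which also moved the share of cells with, to 80.5% in Ctrl and 60% in AD.

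Lists with medians above 0 included those of activation and of signalling. Of 10 activation and checkpoint genes, 2 were higher (Pdcd1 and Il2ra) and the median was 0.60. Il2ra, the high-affinity chain of the IL-2 receptor, was at 237 CPM in 65 of 130 Ctrl cells with and 465 CPM in 43 of 60 AD cells with (0.97, 0.61 to 1.34). Of 10 genes of JAK, STAT and feedback, 2 were higher, the feedback inhibitors Socs1 (63.5 to 140 CPM) and Socs2 (38.3 to 110 CPM), and the median was 0.46. The genes of that list summed to 2835 and 3775 CPM in gated cells, and to 1764 and 4929 CPM in all other kept cells. Of 14 immediate early and heat shock genes, 2 were higher (Fos and Fosb), with a median of 0.39, and these summed to 15525 and 21818 CPM in gated cells beside 23755 and 36486 CPM in all other kept cells. Fos was at 1443 and 3201 CPM, which gave a log2 ratio of 1.15, beside 1.00 in all other kept cells. Of 6 cell cycle genes, 3 were lower (Mki67, Top2a and Stmn1), and Mki67 was seen in 30 of 214 Ctrl and 6 of 94 AD cells. The cell cycle list summed to 2567 and 1984 CPM in gated cells (2160 and 2188 CPM in cells with, 3104 and 1528 CPM in cells without) beside 2039 and 839 CPM in all other kept cells.

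Some list counts rested on few cells. Of 3 chemokine genes, Ccl2 and Cxcl2 were higher, but 83.1% of the Ccl2 UMIs and 60.1% of the Cxcl2 UMIs of the gated AD cells came from 1 cell each. Ccl2 was at 1739 CPM in the fibroblast class of AD, and its source in the gated cells was not tested. Of 6 cytotoxic genes, Gzmc was higher, with 93.5% of its AD UMIs in 1 cell, and Ctsw was lower. Of 6 chemokine and homing receptors, Cxcr4 was higher and Itgb7 lower. Of 10 cytokine receptors, Il2ra alone was higher. Of 5 cytokine and growth factor genes none passed the line, of 3 interferon response genes Bst2 was lower, of 3 type 2 genes Hlf was lower, of 5 lipid and metabolic genes Fabp5 was lower, and of 2 alpha-beta receptor genes none passed it. No gene of the vitamin D response reached 100 CPM. Cyp24a1, the calcitriol-degrading enzyme that vitamin D receptor induces, had 10 UMIs in 2 AD cells and 0 in Ctrl.

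**Figure D5:**
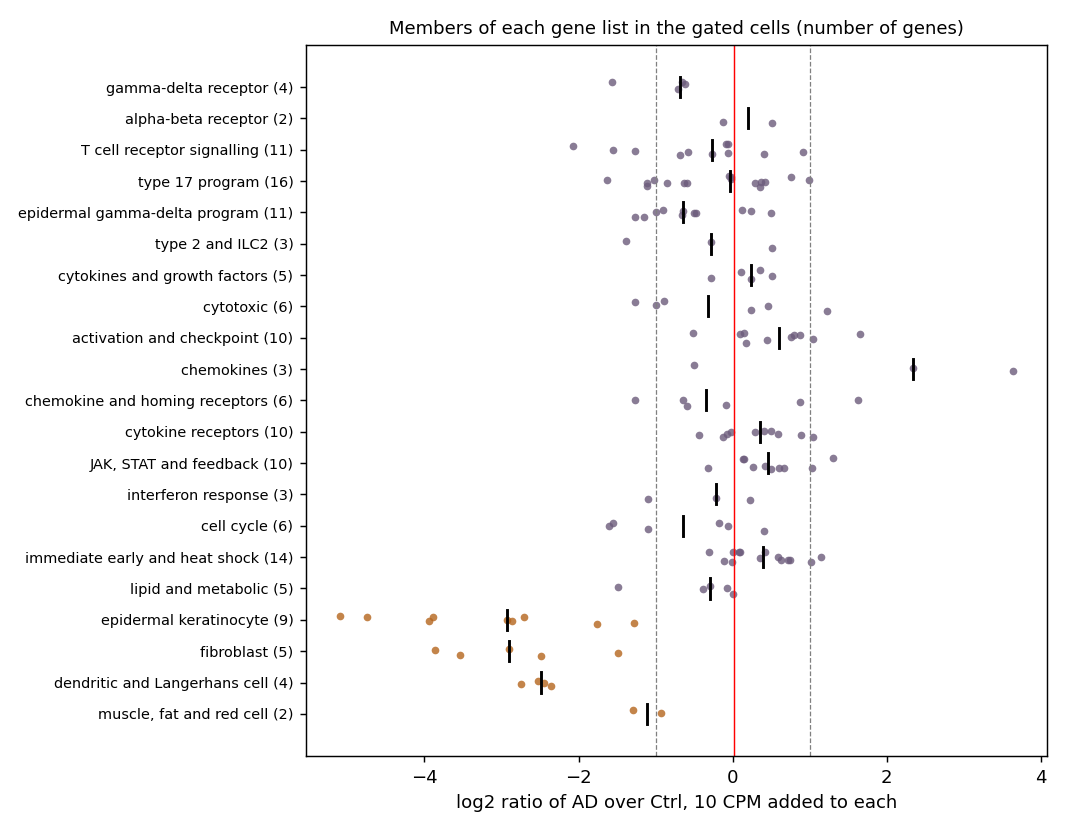
Log2 ratio of AD over Ctrl with 10 CPM added to each (x axis) for members of each gene list in the gated cells, 1 point per gene that reached 100 CPM in Ctrl or AD, and the number of such genes in brackets. Black bars are list medians, the red line the median over all 2036 genes and dashed lines 2-fold. Lists of other skin cells (brown) lie left of the 2-fold line at their medians. The median of the epidermal list lies left of the red line. Without the cells that had a UMI of Trac, Trbc1 or Trbc2, 4 of the 7 epidermal genes examined turned and 3 stayed lower, and the other 4 were not examined. That choice also moved the share of cells with Il17a, Il7r or Ccr2, to 80.5% in Ctrl and 60% in AD.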

How the data were processed

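The authors deposited 1 matrix of raw UMI counts per library (Chromium 3′ v3.1, mm10). The matrix headers name Cell Ranger 5.0.0, while the submitters' processing notes name Cell Ranger 3.1.0 and Seurat 5.0. Per the labels collagenase D was used, where the methods name another collagenase. Members and gene lists were chosen with earlier results of these data known.

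Barcodes were kept if they had between 200 and 6000 genes and no more than 10% of UMIs from mitochondrial genes. For each class of cells, UMIs were pooled and expressed as CPM. Genes were compared where Ctrl or AD reached 100 CPM, with 10 CPM added to each side, and called at 2-fold. Intervals at 95% were exact (Poisson for CPM, Clopper-Pearson for shares, conditional binomial for ratios). Cells were thinned to 1000 UMIs with a fixed seed where depths were compared. A count of 0 was given a floor of 3 counts over the group. With 1 library per group no count model was fitted.

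Named genes were those of the gate and split, examples from the lists, the 12 highest and 12 lowest ratios of AD over Ctrl among genes at least 2 times above all other kept cells of the library where they were higher, with an interval that left out 0, and the 8 highest and 8 lowest between cells with and without. Il17a, Il7r and Ccr2 were left out of the ranking between cells with and without, while Cd3g, a gene of the gate, stayed in the ranking of AD over Ctrl. All 312 list genes were matched, 10 of them by Ensembl identifier because their symbols had changed. Scrublet marked 395 of 11399 Ctrl cells (4 gated) and 0 of 8179 AD cells as doublets, so it had not worked in AD, and no doublets were removed. Promoters came from RefSeq (GRCm38.p6), gene positions from GENCODE M21, whose version differs from the deposited annotation. Scripts ran in Python 3.11.15 with numpy 2.4.6, scipy 1.17.1, pandas 2.3.3, scanpy 1.11.5 and matplotlib 3.10.9 and were tested on simulated data. Alternatives were other cell filters, gates, gene minimums, pseudocounts, scalings and thinning. Results of a few genes are not reported here.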

Additional observations from a re-analysis of the deposited data

Results flagged for a closer look

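For 4 genes the ratio of AD over Ctrl had opposite signs in gated cells with and without Il17a, Il7r or Ccr2, with counting intervals on either side of 0. The difference between the subsets was not tested in any of them, since each group is 1 library. The 4 genes were picked for this pattern, and the share of all genes that show it is not given.

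Nfkbia, the inhibitor of NF-κB that NF-κB itself induces, had a log2 ratio of 0.56 (0.44 to 0.68) in cells with and -0.67 (-1.06 to -0.30) in cells without. Nr4a3, an early target of T cell receptor signals, had -0.21 (-0.39 to -0.03) in cells with and 0.63 (0.31 to 0.95) in cells without. Areg had 0.38 (0.11 to 0.64) in cells with, where 74.0% of the AD UMIs came from 1 cell, and -0.34 (-0.57 to -0.12) in cells without. Hspa1a, an inducible heat shock protein, had 0.62 (0.38 to 0.85) in cells with, where 80.8% of the AD UMIs came from 1 cell, and -1.57 (-2.06 to -1.12) in cells without.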

How the results depend on the processing

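No paired analysis was possible because each group is 1 library. Ratios here carry 10 CPM on each side. Of 516 values of 43 named genes under the alternatives, 435 moved by less than their counting interval, 63 moved further with the same sign and 18 changed sign, among them 8 of genes that had been past 2-fold. Of 336 values of the 28 genes past 2-fold, 312 stayed past it. With cells that had a UMI of Trac, Trbc1 or Trbc2 left out, 41 Ctrl and 20 AD cells remained, and the gated share was 0.360% in Ctrl and 0.245% in AD. The share with Il17a, Il7r or Ccr2 was then 80.5% in Ctrl and 60% in AD, against 60.7% and 63.8% in the main gate. Under that choice 314 genes were higher and 275 lower in AD, and the part of counting error from the fewer cells was not tested. The log2 ratios of genes past 2-fold then reversed for Cd3e (0.081), Cd7 (0.44), Slc2a3 (-0.19), Hilpda (-0.83), Cntn1 (1.74), Avil (0.33) and Col27a1 (0.18). Signs also turned for Tcrg-C1 (0.39), Trdv4 (0.42), Fcer1g (0.70), Nkg7 (0.57), Areg (3.01), Il17a (-1.72) and Cd163l1 (-0.78), and the cause was not tested. With only cells that had a Trac UMI left out, an alternative chosen after seeing the data, the AD gated share was 0.905%, 89 genes were higher and Areg turned to 0.16. The share with Il17a, Il7r or Ccr2 was then 60.6% in Ctrl and 56.8% in AD. Thinning before the gate gave gated shares of 1.38% and 0.560%, shares with Il17a, Il7r or Ccr2 of 45.4% and 46.5%, 339 genes higher and 265 lower, a reversed Il17f (1.30), and turned signs for Gata3 (-0.59) and Il13 (-1.86). It left 152 Ctrl and 43 AD gated cells with fewer UMIs each. The part of counting error in these gene counts and turned signs was not tested. A minimum of 50 CPM gave 114 genes higher and 222 lower, 200 CPM gave 35 and 48, and no minimum gave 250 and 675, because more or fewer genes were compared. With 94 AD cells, a gene at 0 UMIs in AD could still stand at 6.99 CPM, and no interval covers differences between mice.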

Other observations

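A few further list genes are given by their values. Il2rb, the shared chain of the IL-2 and IL-15 receptors, was at 644 CPM in Ctrl against 1127 CPM in AD cells without Il17a, Il7r or Ccr2, a log2 ratio of 0.81 (0.51 to 1.10). Klrd1, an NK receptor chain, had a log2 ratio of 1.05 (0.64 to 1.45) in the same cells, with a UMI in 55 of 84 Ctrl and 28 of 34 AD cells. Socs1 stood at 93.8 and 204 CPM in cells without and at 40.5 and 111 CPM in cells with.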
